A study of Mus musculus with 18 samples.

Results

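The loci of 7 mouse genes, Tet1, Tet2, Tet3, Dnmt1, Dnmt3a, Dnmt3b and Hdac7, were examined for binding of the transcription factors C/EBPα, C/EBPβ and PU.1 while pre-B cells were converted into macrophages. They are 7 of the 22367 protein-coding genes of the annotation and were chosen by name, with earlier results of these data known. A locus is the gene span with 20 kb on either side, in the mm9 build with GENCODE vM1 gene models, and the 7 loci together held 105 of the 106051 sites called in the genome. ChIP-seq, which sequences the DNA that an antibody pulls down with its chromatin, had been performed in C10 cells, a clone of the HAFTL pre-B cell line that carries a C/EBPα-estrogen receptor fusion (C/EBPαER) with GFP, so that β-estradiol moves the fusion into the nucleus. Induced cells were grown with IL-3 and CSF-1, and control cells received the ethanol solvent. C/EBPα was measured at 0, 10, 30 and 60 min and at 3, 12, 24 and 48 hr post-induction (hpi), and C/EBPβ and PU.1 at 0, 3, 12, 24 and 48 hpi. Every factor and time is 1 library, 18 in all, so no difference between times has a replicate check and none was tested for significance.

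The 3 TET proteins oxidise methylated cytosine in DNA, which starts its removal, whereas DNMT1 copies methylation onto newly made strands and DNMT3A and DNMT3B place it on unmethylated DNA. HDAC7 is a class IIa histone deacetylase that is expressed in B cell progenitors and acts in complexes that repress genes. C/EBPα and C/EBPβ recognise related sequences and act with PU.1, an ETS factor that both B cell progenitors and macrophages contain, on enhancers of myeloid genes.

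The windows on which the results turn are printed here as the plus strand of mm9, 200 bases each, with these motifs in capitals: TTGCNNAA for C/EBP and GAGGAA, with or without a following GT, for PU.1, on either strand. Tet2 site 3 (chr3:133211621-133211820) and Hdac7 site 23 (chr15:97610991-97611190) are shown because they had the highest C/EBPα read counts of the 7 loci, both before 3 hpi.
Tet2 site 3: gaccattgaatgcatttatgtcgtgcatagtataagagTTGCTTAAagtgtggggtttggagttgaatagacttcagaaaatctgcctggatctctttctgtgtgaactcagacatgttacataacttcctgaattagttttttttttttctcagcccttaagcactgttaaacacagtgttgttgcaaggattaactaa
Hdac7 site 23: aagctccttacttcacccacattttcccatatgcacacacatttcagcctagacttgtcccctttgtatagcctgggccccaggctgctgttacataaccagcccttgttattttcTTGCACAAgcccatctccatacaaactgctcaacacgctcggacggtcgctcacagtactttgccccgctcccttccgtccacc
Hdac7 site 14 (chr15:97653411-97653610) and Dnmt1 site 6 (chr9:20750601-20750800) are shown because they had the highest C/EBPβ read counts at 48 hpi in their loci.
Hdac7 site 14: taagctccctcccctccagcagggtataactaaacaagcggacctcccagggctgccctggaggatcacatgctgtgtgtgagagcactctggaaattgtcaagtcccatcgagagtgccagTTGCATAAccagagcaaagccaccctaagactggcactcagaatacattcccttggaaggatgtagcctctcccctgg
Dnmt1 site 6: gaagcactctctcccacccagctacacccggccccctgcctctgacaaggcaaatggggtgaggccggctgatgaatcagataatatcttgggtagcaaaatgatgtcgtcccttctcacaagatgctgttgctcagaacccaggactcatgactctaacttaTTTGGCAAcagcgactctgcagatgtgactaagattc
Tet3 site 2 (chr6:83405391-83405590) and Hdac7 site 6 (chr15:97672091-97672290) are shown because they had the highest PU.1 read counts of the 7 loci before induction.
Tet3 site 2: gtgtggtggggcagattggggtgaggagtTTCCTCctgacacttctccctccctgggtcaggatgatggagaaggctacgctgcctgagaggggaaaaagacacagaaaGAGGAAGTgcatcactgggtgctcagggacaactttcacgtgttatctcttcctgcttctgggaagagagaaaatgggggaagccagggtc
Hdac7 site 6: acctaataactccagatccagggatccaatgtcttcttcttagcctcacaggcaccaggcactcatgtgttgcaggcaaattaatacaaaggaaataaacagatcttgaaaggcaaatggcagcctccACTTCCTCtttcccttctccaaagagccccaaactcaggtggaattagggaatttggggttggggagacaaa
Tet2 site 19 (chr3:133130501-133130700) is shown as a window that lies wholly within a coding exon and was called at 60 min alone. It holds neither of the capitalised motifs, but TTCCATAA in it matches TTNCNNAA, a shorter C/EBP form that was also searched.
Tet2 site 19: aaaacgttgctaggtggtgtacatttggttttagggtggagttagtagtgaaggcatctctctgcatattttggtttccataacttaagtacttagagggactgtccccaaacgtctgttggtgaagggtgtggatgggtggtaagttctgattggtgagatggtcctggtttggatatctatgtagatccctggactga

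Depth differed between factors. The C/EBPα libraries held 5970869 to 24917810 reads, those of PU.1 6575348 to 11349746 and those of C/EBPβ 2903580 to 5844202. Values are normalised reads, that is reads in a 200-bp window per 10000000 reads of the library, with 95% exact Poisson intervals in parentheses that cover counting error only, since reads without molecular identifiers are not independent molecules. A site needed at least 7 to 15 reads, depending on the library, which was 6.02 to 9.23 normalised reads in the 10 to 60 min C/EBPα libraries and 9.88 to 15.1 in the other C/EBPα libraries. The limit was 9.69 to 13.7 in the PU.1 libraries and 15.4 to 24.1 in the C/EBPβ libraries. The 10, 30 and 60 min libraries were also sequenced on another instrument with longer reads (50 bases against 36), so for C/EBPα these times and the sequencing run cannot be told apart. More cells with a factor at a site and more binding per cell cannot be told apart in such libraries either. Windows that overlapped between libraries were merged into 1 site, the printed values are those of its strongest window, and a call in another library can come from a neighbouring window of the same site. In 32 of the 295 calls, at 24 of the 105 sites, the printed window therefore lay below the limit of that library. Sites are numbered in the direction of transcription of each gene, and a distance is from the centre of the window to the start of the gene.

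PU.1 was called at 71 of the 105 sites (73.8% of all sites in the genome), C/EBPα at 44 (38.8%) and C/EBPβ at 8 (18.1%). PU.1 had at least 1 site in 7 of the 7 loci, against 78.3% of all protein-coding loci, C/EBPα in 6 (62.8%) and C/EBPβ in 2 (45.3%). No share of loci, here or below, was matched for locus length. A longer locus has more room for a site, and the 7 loci span 78.3 to 148 kb. Sites of PU.1 alone numbered 57 of 105 (56.9% in the genome), and 2 sites, both in Hdac7 introns, were called for all 3 factors (7.55% of all sites in the genome were). Of the 105 sites, 27 lay upstream of the gene, 46 in introns, 13 in coding exons of the member, 1 in an untranslated exon and 18 downstream, of which Dnmt1 site 10 was in a coding exon of Ppan.

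**Figure D1:**
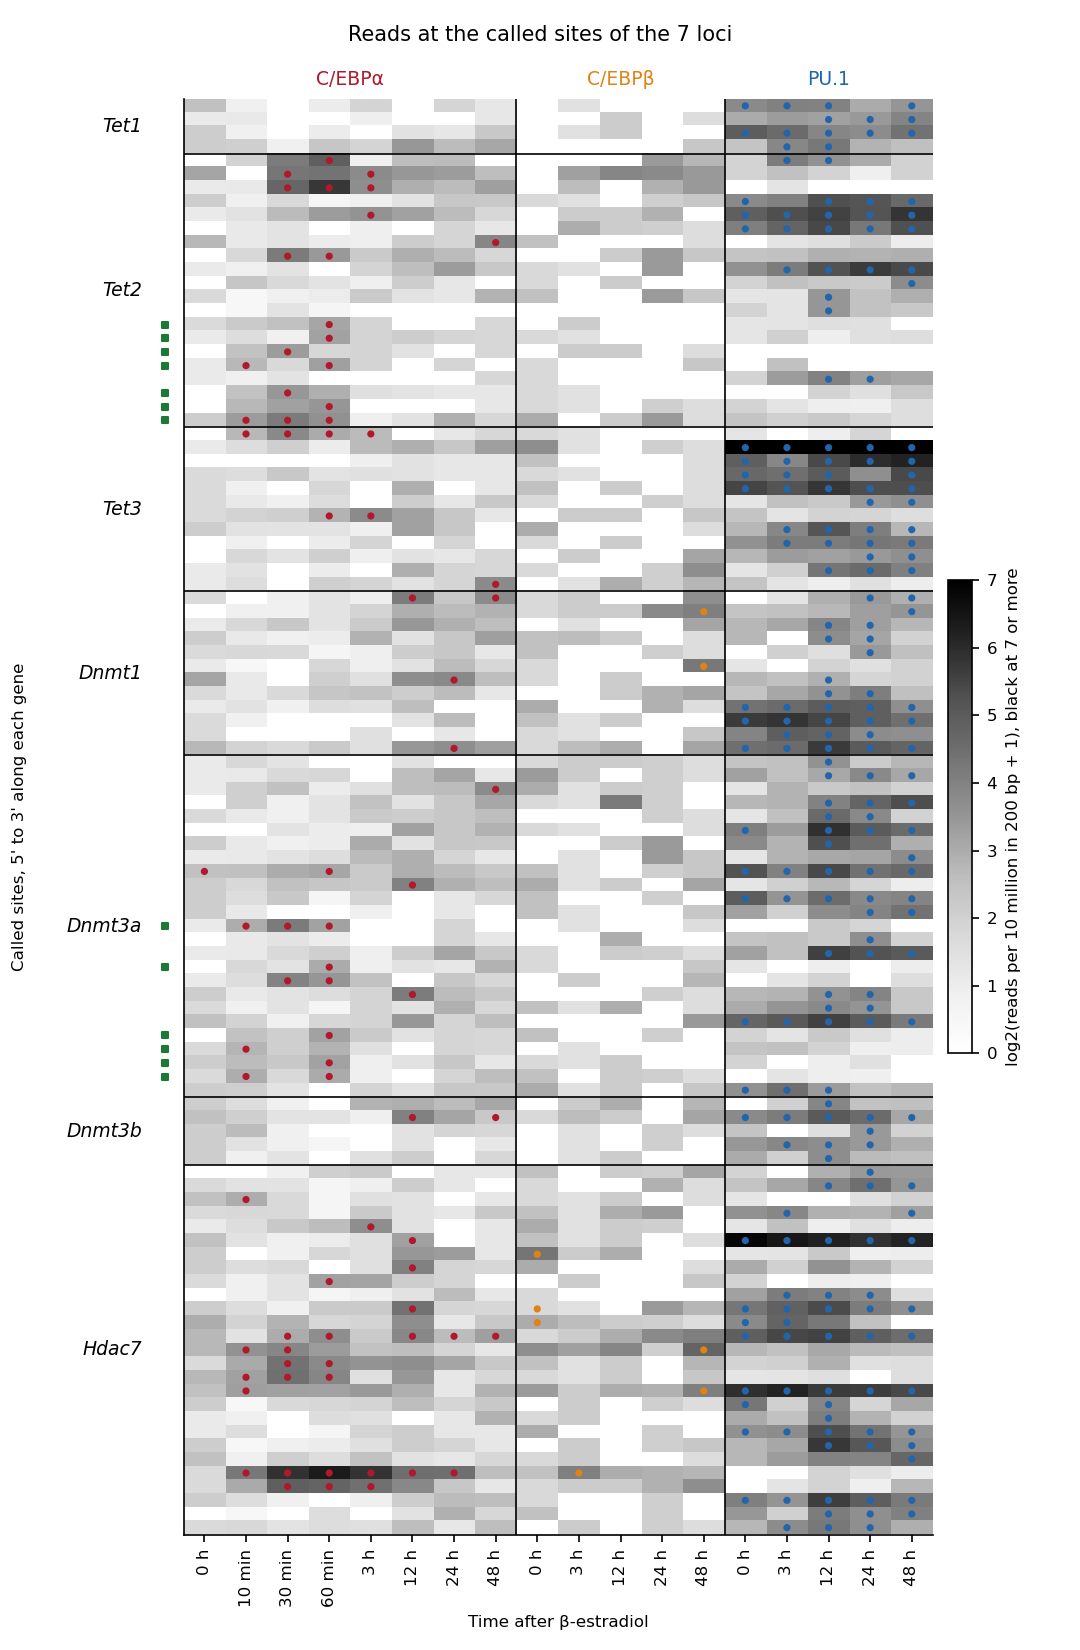
Reads at the 105 called sites (rows, ordered along each gene from upstream to downstream) in the 18 libraries (columns, by factor and time after β-estradiol). Shading is log2(normalised reads + 1), a dot marks a library in which the site was called, and green squares mark the 13 sites in coding exons. Dots of C/EBPα in the marked rows fall in the 10, 30 and 60 min columns, and PU.1 dots run across all 5 times at 19 sites.

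The 7 loci differed in how densely they were bound. Hdac7 had 13 C/EBPα, 6 C/EBPβ and 17 PU.1 sites, which is 14.2, 6.53 and 18.5 per 100 kb, more than in 97.9%, 95.6% and 96.2% of all loci. Its reads away from sites were also above those of the median locus, by 1.20 to 2.13 times over the 18 libraries (median 1.59), most in the 0 h C/EBPβ library in which 3 of its 6 C/EBPβ sites were called, and no input library was used. Tet3, with fewer sites, had a similar excess (1.21 to 1.76, median 1.53), and Dnmt1 and Dnmt3a had a median of 1.33 each. The part of these background reads in the Hdac7 site counts was not tested. Tet2 had 13 C/EBPα sites (10.8 per 100 kb, above 94.5% of loci), no C/EBPβ site and 9 PU.1 sites (7.46 per 100 kb, above 65.4%). Dnmt3a had 11 C/EBPα (7.41 per 100 kb, above 87.4%), no C/EBPβ and 16 PU.1 sites (10.8 per 100 kb, above 79.5%). The positions of Tet2 and Dnmt3a in that order rested in large part on coding exons: without the sites there, 6 C/EBPα sites were left in Tet2 (4.97 per 100 kb, above 76.9%) and 5 in Dnmt3a (3.37 per 100 kb, above 64.4%), whereas Hdac7 had none to leave out. Dnmt1 had 3 C/EBPα, 2 C/EBPβ and 11 PU.1 sites, and Tet3 had 3, 0 and 9. Tet1, with 4 PU.1 sites and neither C/EBP factor, and Dnmt3b, with 1 C/EBPα and 5 PU.1 sites, were the most sparsely bound members. The medians over all loci were 1.91, 0 and 4.78 sites per 100 kb for C/EBPα, C/EBPβ and PU.1.

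The C/EBPα sites of the 7 loci comprised 13 in coding exons of Tet2 and Dnmt3a, described further on, which were called between 10 and 60 min alone, and 31 elsewhere. Of the 44, 1 was called at 0 h (7.43% of C/EBPα sites in the genome), 11 at 10 min (24.3%), 15 at 30 min (41.3%) and 23 at 60 min (58.4%). Later 8 were called at 3 hpi (56.1%), 9 at 12 hpi (32.0%), 4 at 24 hpi (25.1%) and 6 at 48 hpi (21.9%). Without the coding exons the counts at 10, 30 and 60 min were 6, 11 and 13 of 31 and those at the other times were the same. The called sites thus went from 23 at 60 min to 8 at 3 hpi with the coding exons and from 13 to 8 without them. The limit was 7.17 normalised reads at 60 min and 9.88 at 3 hpi, so these counts do not share a limit. Outside coding exons, Dnmt3a site 9 and Hdac7 site 9 were called at 60 min at 7.68 and 8.19, below the later limit. Neither was called at 3 hpi. Tet3 sites 1 and 7 had 7.68 and 7.17 at 60 min but were called again at 3 hpi, at 9.88 and 12.6. Tet2 sites 1 and 8, Dnmt3a site 17 and Hdac7 sites 13, 15 and 16 were called at 60 min at 12.3 to 28.7. These values lay above the later limit, yet the sites were not called at 3 hpi. How much of the fall comes from the limits was not tested. By locus, a site called at 48 hpi lay in 6 of the 7 loci (32.5% of all loci) and one called at 0 h in 1 (15.2%). These shares of loci are not matched for length either. The calls at 48 hpi rested on 10 to 14 reads, against a minimum of 10. Those in the loci of Tet3, Dnmt1 and Dnmt3b lay in Bola3, in S1pr2 and by the start of Commd7.

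At a single time 25 of the 44 were called, and 16 of the 31 outside coding exons (51.6%), against 40.7% in the genome. None of the 44 was called at all 8 times (2.49%). The reads were highest at 30 min at 11 of the 44 sites (15.3% in the genome) and at 60 min at 15 (21.0%). Outside coding exons these counts were 7 of 31 (22.6%) and 6 of 31 (19.4%), since all 13 coding-exon sites were highest at 1 of these times. The reads were highest at 3 hpi at 4 sites (28.9%), at 0 h at 0 (1.84%), at 10 min at 1 (1.76%), at 12 hpi at 8 (17.7%), at 24 hpi at 2 (6.81%) and at 48 hpi at 3 (6.72%).

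Between 0 and 3 hpi 7 of the 44 sites were at least 2-fold higher with an interval that excluded 1, against 43.4% in the genome, and 0 were lower (0.668%). Between 0 and 48 hpi 5 were higher (17.1%) and 0 lower (1.51%). These were Tet2 site 3 (7.80-fold, 1.0 to 352), Tet3 site 12 and Dnmt3a site 3 (11.1-fold each, 1.59 to 484), Dnmt1 site 1 (5.57-fold, 1.19 to 52.3) and Dnmt3a site 16, all on 0 to 2 reads at 0 h. Site 16 of Dnmt3a lies in a coding exon and had 0 reads at 0 h, and with these set to 3 it was at least 1.86-fold higher, short of 2-fold. Neither this site nor Tet2 site 3 was called at 48 hpi, where the limit was 12.6 normalised reads. The lower bound of Tet2 site 3, printed as 1.0, is just above 1 before rounding. From 3 to 48 hpi 4 were higher (4.89%) and 5 lower (32.8%).

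C/EBPβ was called at 3, 1, 0, 0 and 4 of the 8 sites at 0, 3, 12, 24 and 48 hpi, each site at 1 time only, against 6.62%, 34.6%, 19.1%, 38.1% and 82.1% of the C/EBPβ sites of the genome. Calls at 0 hpi lay in 1 of the 7 loci (6.60% of all loci) and calls at 48 hpi in 2 (42.4%). One of the 8 sites was higher at 48 than at 0 hpi (58.5% of C/EBPβ sites in the genome) and 1 was lower (0.837%). From 0 to 3 hpi 0 were higher (17.9%) and 1 lower (0.769%), and from 3 to 48 hpi 2 were higher (50.2%) and 0 lower (5.70%). The median log2 ratio of 48 to 0 hpi was 0.94 over these 8 sites and 2.92 over the genome. PU.1 was called at 26, 33, 57, 51 and 43 of its 71 sites at these times, against 42.2%, 46.8%, 77.5%, 59.2% and 54.8% in the genome. At all 5 times it was called at 19 of the 71 (25.0% in the genome). It was called at 0 hpi in 7 of the 7 loci (63.5% of all loci) and at 48 hpi in 7 (66.9%). From 0 to 48 hpi 9 of its 71 sites were higher (16.3%) and 3 lower (11.9%), with a median log2 ratio of 0.14, against 0.17 in the genome. From 0 to 3 hpi 1 was higher (6.41%) and 3 lower (2.00%), and from 3 to 48 hpi 10 were higher (11.9%) and 7 lower (14.0%). Over the genome the 12 hpi PU.1 library had 60848 called windows, against 33106 to 46473 in the other PU.1 libraries. It also had 37.2% of its reads near sites, against 29.2% to 32.7%. Whether the PU.1 peaks at 12 hpi given below exceed this difference between libraries was not tested. PU.1 at 0 hpi lay within 1000 bp of 11 of the 44 C/EBPα sites, against 32.1% of those in the genome. Outside coding exons it was 11 of 31 (35.5%), and it was 0 of the 13 within them.

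Among the TET genes, C/EBPα reads gathered upstream of Tet2 soon after induction. At Tet2 site 3, 4.37 kb upstream of the start and holding a TTGCTTAA motif, C/EBPα gave 1.13 normalised reads (0.0285 to 6.28) at 0 h, 1.20 at 10 min, 24.6 (16.8 to 34.7) at 30 min and 52.7 (43.0 to 63.9) at 60 min. It then gave 11.7 (6.22 to 20) at 3 hpi, 6.70 at 12 hpi, 5.27 at 24 hpi and 8.80 (3.54 to 18.1) at 48 hpi. The peak was thus at 60 min, and the site was called at 30 min, 60 min and 3 hpi only. The ratio of 3 to 0 hpi was 10.4 (1.56 to 440.0), on 1 read at 0 h. PU.1 was at 0, 1.52, 0, 0 and 0 normalised reads there, so that site 3 was bound without detectable PU.1 at this depth, a 0 allowing up to 3.25 to 5.23.

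Of the other Tet2 sites outside coding exons, 3 more were called for C/EBPα at 30 or 60 min. Site 1, 5.09 kb upstream (chr3:133212341-133212540), had 0, 2.81, 16.9, 28.7, 0.899, 5.02, 5.27 and 0 normalised C/EBPα reads in the order of the 8 times. Site 2, 4.80 kb upstream (chr3:133212051-133212250), had 7.89, 0, 18.5, 19.4, 12.6, 10.0, 9.23 and 5.03. Site 8, in the first intron 2.14 kb downstream of the start (chr3:133205111-133205310), had 0, 2.41, 16.9, 9.72, 3.59, 6.70, 5.27 and 2.51 and holds 1 match each to TTGCNNAA and GAGGAA. All 3 were highest at 30 or 60 min. Site 7, 0.537 kb upstream and thus closest to the start (chr3:133207791-133207990), differed from them: its values stayed at or below 5.64 until 24 hpi and it was called at 48 hpi alone, at 13.8, a ratio to 3 hpi of 15.4 (2.24 to 662) on 1 read.

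PU.1 was also called at site 1, at 3 and 12 hpi with 16.7 and 11.2, but most PU.1 sites of Tet2 were other windows. At site 5, 1.61 kb upstream (chr3:133208861-133209060), PU.1 gave 28.4, 38.0, 45.7, 35.2 and 55.4 normalised reads at 0, 3, 12, 24 and 48 hpi, and at site 6, 0.947 kb upstream (chr3:133208201-133208400), 15.6, 25.9, 42.0, 17.6 and 37.3. Both were called at all 5 times, C/EBPα was called at site 5 at 3 hpi with 10.8, and site 6 was 2.39-fold higher (1.20 to 5.17) at 48 than at 0 hpi. In the intron 18.1 kb from the start, site 9 (chr3:133189161-133189360) had 11.3, 16.7, 36.4, 50.2 and 41.1, a ratio of 3.62 (1.68 to 8.92), and was not called at 0 h. C/EBPβ passed the threshold nowhere in the Tet2 locus.

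**Figure D2:**
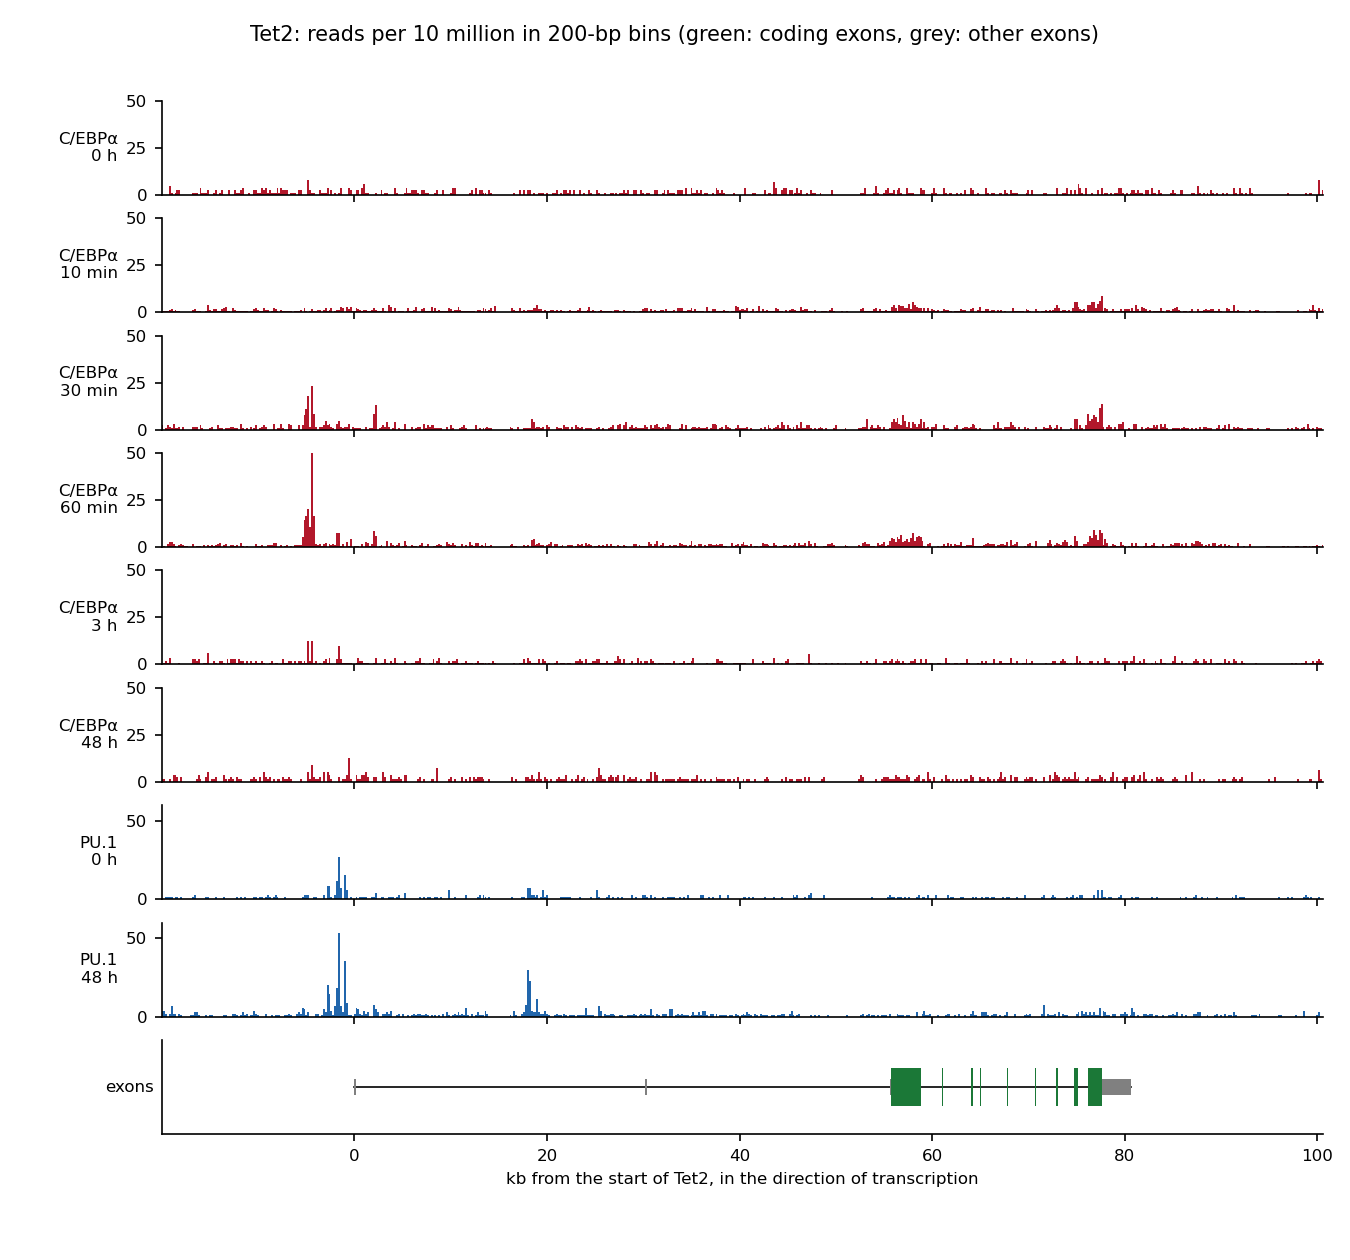
Normalised reads in 200-bp bins along Tet2 (y axis, 0 to 50 for C/EBPα) in 8 of the 18 libraries, against the distance in kb from the start of the gene in the direction of transcription (x axis). Green boxes are coding exons and grey boxes other exons. The C/EBPα reads at 30 and 60 min stand 4.37 to 5.09 kb upstream of the start, PU.1 at 0 and 48 hpi stands between 0.947 and 2.69 kb upstream and at 48 hpi also at 18.1 kb, and low C/EBPα reads fill the first and last coding exons at 10, 30 and 60 min.

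Tet3 was marked by PU.1. Site 2, 13.8 kb upstream with a GAGGAAGT motif, had 336 (295 to 382), 274 (235 to 317), 203 (176 to 231), 191 (167 to 218) and 225 (197 to 255) normalised PU.1 reads, the highest of any site in the 7 loci at every time. It was highest before induction, and the ratio of 48 to 0 hpi was 0.668 (0.555 to 0.804), short of the 2-fold limit. At site 3, 7.96 kb upstream (chr6:83399531-83399730), PU.1 went the other way, from 28.4 and 13.7 at 0 and 3 hpi to 41.1, 61.7 and 70.7, a ratio of 2.49 (1.5 to 4.31). Site 11, 59.8 kb into the gene and 1.99 kb upstream of an internal start (chr6:83331791-83331990), had 1.42, 3.04, 18.7, 22.9 and 15.3, so that PU.1 was called there from 12 hpi on.

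C/EBPα had 3 sites at Tet3, none with a PU.1 call. Site 1, 18.3 kb upstream (chr6:83409901-83410100), had 0, 5.62, 13.1, 7.17, 5.39, 0, 1.32 and 2.51 normalised reads. It was called from 10 min to 3 hpi, at 10 min and 3 hpi in neighbouring windows with 6.42 and 9.88. Site 7, in an intron 8.69 kb from the start, was highest at 3 hpi with 12.6, and site 12, in the neighbouring gene Bola3, at 48 hpi with 12.6. The highest values of the 3 sites thus fell at 3 different times, but they rested on 10 to 17 reads, and that of site 12 lay exactly at the limit. Whether the times differ beyond counting error was not tested.

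At Tet1 the most reads were those of PU.1 at site 3, in an intron 13 kb from the start (chr10:62348771-62348970), with 29.8 (18.4 to 45.5), 22.8, 14.0, 12.3 and 20.1 (12.4 to 30.7) normalised reads. It was the only Tet1 site called at all 5 times, and its ratio of 48 to 0 hpi, 0.674 (0.35 to 1.30), was within counting error of 1. Site 4 lies at the start of the next gene, Ccar1, and was called for PU.1 at 3 and 12 hpi with 13.7 and 17.7. No C/EBPα or C/EBPβ window of Tet1 reached the threshold in any of the 13 libraries of these factors.

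Among the methyltransferase genes, Dnmt1 had PU.1 calls near the read minimum at the promoter and calls of both C/EBP factors elsewhere in its locus. Its 3 C/EBPα sites lay in S1pr2 and by the starts of Eif3g and Ppan, each called on 10 reads. Site 3, whose centre is 34 bp upstream of the start (chr9:20757251-20757450), had 5.67, 7.60, 14.0, 8.81 and 5.73 normalised PU.1 reads and was called at 12 and 24 hpi. Site 4, 0.446 kb downstream of the start, had 5.67, 0, 12.1, 7.93 and 2.87 and was called at the same times. At both the highest value was at 12 hpi, and the calls rested on 11 to 15 reads against a minimum of 11.

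Dnmt1 site 6, in an intron 6.62 kb from the start, was 1 of the 4 C/EBPβ sites called at 48 hpi. C/EBPβ gave 2.33 (0.0591 to 13) normalised reads at 0 h, 0 at 3, 12 and 24 hpi and 17.7 (8.11 to 33.7) at 48 hpi. The ratio of 48 to 0 hpi was 7.59 (1.05 to 333), and 48 hpi was at least 3.45-fold above 3 hpi, where a count of 0 was set to 3 reads. It was the 1 C/EBPβ site called higher at 48 than at 0 hpi, and 0 were called higher with a read minimum 1.5 times higher or with a shift by the fragment length of each library divided by 2. The window holds TTGCCAAA on the minus strand, printed as TTTGGCAA, and C/EBPα was not called there. Site 2, 8.80 kb upstream (chr9:20766021-20766220), had 2.33, 3.42, 3.44, 12.8 and 15.8 normalised C/EBPβ reads and was likewise called at 48 hpi.

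PU.1 was lower at 48 hpi at a site downstream of Dnmt1. Site 10, in the neighbouring gene Ppan (chr9:20693751-20693950), had 49.6 (34.6 to 69.0), 54.7, 43.9, 28.2 and 21.0 (13.2 to 31.8), a ratio of 48 to 0 hpi of 0.424 (0.237 to 0.743). C/EBPα at site 1, 14.0 kb upstream in S1pr2 (chr9:20771201-20771400), was 2.26 at 0 h, 16.7 at 12 hpi and 12.6 at 48 hpi, 5.57-fold (1.19 to 52.3) above 0 h on 2 reads.

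At Dnmt3a PU.1 was higher at 48 than at 0 hpi at 3 windows, sites 4, 8 and 15. Site 4, 6.22 kb upstream (chr12:3799691-3799890), gave 5.67 (1.55 to 14.5), 6.08, 14.9, 25.6 and 39.2 (28.1 to 53.1) normalised PU.1 reads. The value at 48 hpi was 6.91-fold (2.50 to 26.5) above 0 h. Values rose from one time to the next after 3 hpi, but the intervals of neighbouring times overlapped. Site 15, in an intron 67.1 kb from the start (chr12:3872971-3873170), had 8.51, 4.56, 47.6, 36.1 and 31.5, a ratio of 3.71 (1.53 to 10.8). Site 6, in an intron with ACTTCCTC, the minus-strand form of GAGGAAGT (chr12:3834491-3834690), peaked at 12 hpi instead, with 15.6, 9.12, 58.8, 30.8 and 22.9. The 12 hpi library was also the one with the most PU.1 calls over the genome. Site 11, in an untranslated exon 56.0 kb from the start, went from 29.8 to 14.3 (0.481, 0.231 to 0.979).

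Outside coding exons C/EBPα had 5 sites at Dnmt3a. Site 9 (chr12:3855721-3855920) was the single C/EBPα site of the 7 loci called at 0 h, where its strongest neighbouring window had 12.4 normalised reads. The printed window had 4.51, 4.82, 6.92, 7.68, 3.59, 6.70, 5.27 and 3.77, and PU.1 was called there at all 5 times. Sites 17, 18 and 19 lie within 1000 bp of internal starts 85.7 kb into the gene. C/EBPα at site 17 (chr12:3890871-3891070) had 1.13, 2.01, 14.6, 10.2, 4.49, 0, 3.95 and 2.51, and at site 18 (chr12:3891341-3891540) was called at 12 hpi alone, with 16.7. PU.1 was called at sites 18 and 19 at 12 and 24 hpi, with 10.6 to 14.1.

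Dnmt3b had the fewest sites of the 3 methyltransferase genes. Its strongest site, site 2, 16.7 kb upstream and within 1000 bp of the start of Commd7 (chr2:153458431-153458630), had 12.8, 16.7, 31.7, 22.9 and 7.64 normalised PU.1 reads, highest at 12 hpi, and C/EBPα of 15.1 at 12 hpi. Close to the Dnmt3b start itself, site 3 (0.965 kb downstream) was called for PU.1 at 24 hpi alone, at 9.69.

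The Hdac7 locus held the strongest C/EBPα site of the 7 loci, 63.8 kb downstream of the start. It lies 12.0 kb beyond the end of Hdac7 and 3.70 kb upstream of the start of Slc48a1, the closer of the 2 genes. At this site 23, with a TTGCACAA motif, C/EBPα gave 2.26 (0.273 to 8.15) normalised reads at 0 h, 17.7 (12.8 to 23.7) at 10 min, 56.9 (44.7 to 71.4) at 30 min and 79.3 (67.3 to 92.8) at 60 min. The later values were 56.6 (43.5 to 72.4) at 3 hpi, 21.8 at 12 hpi, 21.1 at 24 hpi and 5.03 (1.37 to 12.9) at 48 hpi. It was called from 10 min to 24 hpi, more times than any other C/EBPα site here, and was near its starting level at 48 hpi. The ratio of 3 to 0 hpi was 25.1 (6.67 to 212) and that of 48 to 3 hpi 0.0888 (0.0235 to 0.239). C/EBPβ was called there at 3 hpi only, with 15.4 (7.04 to 29.2), and PU.1 was at 0, 0, 2.80, 1.76 and 0.955. Site 24, 64.7 kb from the start (chr15:97610111-97610310), also rose early and fell later for C/EBPα, with 2.26, 7.22, 28.5, 25.6, 20.7, 13.4, 3.95 and 1.26. Unlike site 23, it was highest at 30 min and was called at 30 min, 60 min and 3 hpi only.

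Within Hdac7, PU.1 and the C/EBP factors shared introns that lie before all but the first coding exon. PU.1 was highest at site 6, 2.74 kb from the start with ACTTCCTC, at 112 (88.7 to 140.0), 85.2, 71.9, 57.3 and 68.8 (53.8 to 86.6) normalised reads, and at site 17, 23.5 kb from the start, at 59.6, 70.0, 51.3, 49.3 and 42.0. Both were bound before induction, with ratios of 48 to 0 hpi of 0.614 (0.440 to 0.856) and 0.706 (0.452 to 1.10). Between 18.5 and 23.5 kb from the start, sites 12 to 17 included 5 C/EBPα sites, among them site 16 (chr15:97651761-97651960) with 5.64, 8.43, 20.8, 13.8, 1.80, 10.0, 1.32 and 2.51.

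Site 14, in that cluster and holding TTGCATAA, had 11.7 (3.79 to 27.2), 8.56, 13.8, 3.20 and 25.6 (13.6 to 43.8) normalised C/EBPβ reads, the highest C/EBPβ value of the 8 sites. Its ratio of 48 to 0 hpi was 2.19 (0.734 to 7.86), within counting error of 1. C/EBPα at site 14 was highest at 10 and 30 min, with 11.2 and 13.8. At site 7, 3.72 kb from the start (chr15:97671111-97671310), C/EBPβ gave 18.7 at 0 h, on 8 reads, and 0 at 48 hpi. This was the 1 C/EBPβ site called lower at 48 than at 0 hpi, and 0 were called lower with the higher read minimum or with the shift by the fragment length divided by 2. Normalised C/EBPβ reads of the Hdac7 locus away from sites were 10.4 per kb at 0 h and 6.26 at 48 hpi. Site 13 (chr15:97655381-97655580) was the Hdac7 site at which C/EBPα was still called at 48 hpi, in a neighbouring window with 17.6, against 8.80 in the printed one.

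PU.1 at Hdac7 also moved at its weaker sites. At site 21, beyond the gene in Slc48a1 and with ACTTCCTC (chr15:97617961-97618160), it had 5.67, 7.60, 53.2, 33.5 and 12.4, a peak at 12 hpi. At site 22, also in Slc48a1, it went from 5.67 to 24.8 between 0 and 48 hpi (4.38, 1.52 to 17.3). At site 12 it went from 12.8 and 25.9 at 0 and 3 hpi to 0 at 48 hpi.

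**Figure D3:**
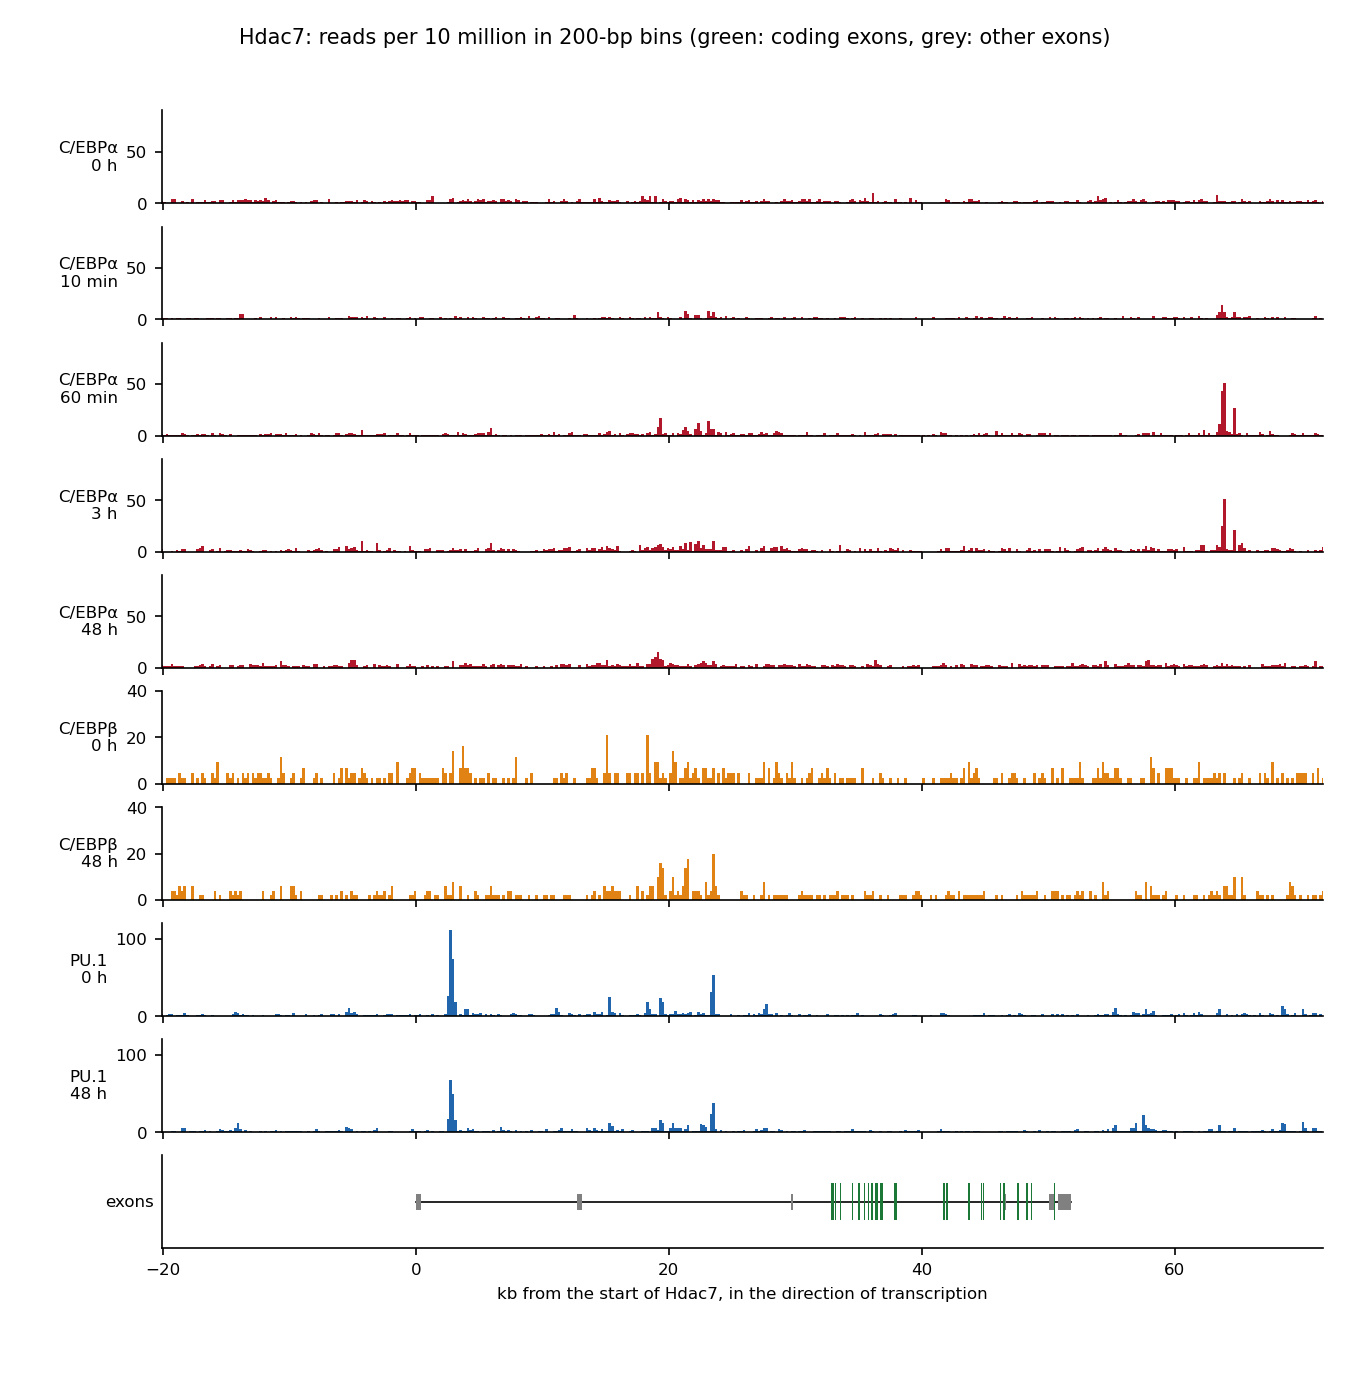
Normalised reads in 200-bp bins along Hdac7 (y axis, one scale per factor) in 9 of the 18 libraries, against the distance in kb from the start of the gene in the direction of transcription (x axis). Green boxes are coding exons and grey boxes other exons. C/EBPα stands at 63.8 kb from 10 min to 3 hpi and is near the baseline at 48 hpi, while PU.1 stands at 2.74 and 23.5 kb at both 0 and 48 hpi.

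**Figure D4:**
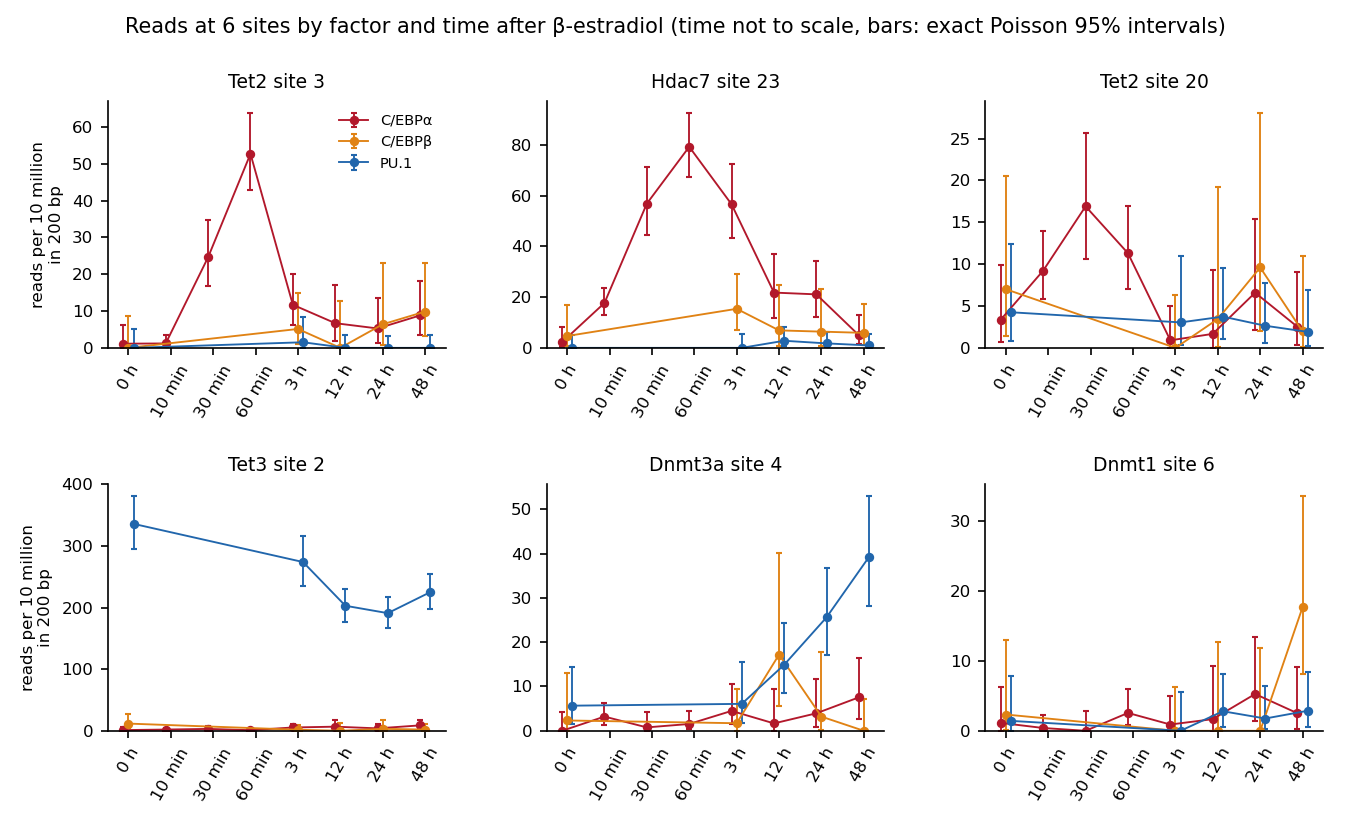
Normalised reads in 200 bp (y axis, a scale for each panel) at 6 sites against the time after β-estradiol (x axis, not to scale) for C/EBPα, C/EBPβ and PU.1, 1 library per point, with exact Poisson 95% intervals as bars. C/EBPα is highest at 60 min at Tet2 site 3 (52.7) and Hdac7 site 23 (79.3), PU.1 is highest at 0 h at Tet3 site 2 (336) and at 48 hpi at Dnmt3a site 4 (39.2), and C/EBPβ is above the other times at 48 hpi at Dnmt1 site 6 (17.7).

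Part of the early C/EBPα calls at Tet2 and Dnmt3a lay in coding exons. Across the 7 loci, 22 of the 44 C/EBPα sites (50.0%) were called at 10, 30 or 60 min and at no other time, against 25.2% in the genome, and outside coding exons it was 9 of 31 (29.0%). The limit was 6.02 to 9.23 normalised reads at these times and 9.88 to 15.1 in the other C/EBPα libraries. Weak sites could thus be called only early, and these shares do not separate timing from the limit. Of the 22, 13 (59.1%) lay in coding exons, 7 in Tet2 and 6 in Dnmt3a. Of all C/EBPα sites of the genome called only at these times, 1.84% lay in coding exons, and of the 22 C/EBPα sites called at another time in the 7 loci, 0 did (2.98% in the genome). At Tet2 site 19 C/EBPα gave 0, 5.62 (3.07 to 9.43), 8.46 (4.22 to 15.1), 10.2 (6.25 to 15.8), 0, 0, 0 and 1.26 normalised reads, and at Dnmt3a site 13 (chr12:3866051-3866250) 1.13, 6.82, 16.9, 8.19, 0, 0, 2.64 and 0. Dnmt3a site 24 (chr12:3907571-3907770), by an internal start, had 2.26, 6.82, 2.31, 7.17, 0.899, 0, 2.64 and 5.03. Tet2 sites 13 and 14, within 1000 bp of an internal start 55.7 kb into the gene, were called at 60 min alone with 7.68 and 8.19. None of these windows was called after 60 min, when the limit was 9.88 to 15.1. That is above the highest value at any time of Tet2 sites 13 and 14 and of Dnmt3a site 24, so these could not be called later at the same level.

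The reads followed the borders of the coding exons. Over the 5760 coding bp of Tet2 the density was 17.9 (15.8 to 20.2), 24.0 (20.6 to 27.8) and 24.6 (21.8 to 27.7) normalised reads per kb at 10, 30 and 60 min, and 5.29, 6.71, 9.30, 11.4 and 10.3 in the C/EBPα libraries of 0, 3, 12, 24 and 48 hpi. In the introns within 500 bp of those exons it was 4.23, 4.34 and 4.44 at 10, 30 and 60 min, and in the untranslated exons 5.59, 6.25 and 5.50. Over the 2833 coding bp of Dnmt3a it was 19.3, 26.9 and 33.8 at these times, against 5.20, 5.56 and 4.13 in the introns nearby. The untranslated exons of Dnmt3a, at 5.23, 5.46 and 4.48, were as low as its introns. In both genes the coding exons stood apart at 10, 30 and 60 min from every other part of the same gene.

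Taken exon by exon, 14 of the 14 coding exons of Dnmt3a of at least 100 bp had at least 2 times the density of its introns over the 3 early libraries, and 0 of 14 had it over the other 5 C/EBPα libraries. At Tet2 it was 5 of 6 and 3 of 6. The other members had 0 of 7 (Tet1), 1 of 6 (Tet3), 0 of 21 (Dnmt1), 2 of 14 (Dnmt3b) and 0 of 16 (Hdac7) over the early libraries. Over coding exons of any length it was 19 of 25 in Dnmt3a in the early libraries and 4 of 25 in the others, and 6 of 10 and 3 of 10 in Tet2. In the early libraries it was 2 of 12 in Tet1, 1 of 9 in Tet3, 3 of 39 in Dnmt1, 2 of 22 in Dnmt3b and 0 of 26 in Hdac7. For these 5 genes the ratios of coding exons to the rest of the gene at 10, 30 and 60 min ran from 0.669 in Dnmt3b to 1.22 in Tet1. Of 11684 genes with enough coding sequence and a ratio in all libraries, 4 (0.0342%) had a ratio of at least 2 in each of the early libraries and above that of all 15 other libraries, and 2 of the 4 were Tet2 (3.82 to 5.16, against 0.831 to 2.13 in the others) and Dnmt3a (3.57 to 6.79, against 0.742 to 1.96). The rule for this count has the form of the pattern described above for Tet2 and Dnmt3a, so their passing it is not independent of that pattern. The origin of these coding-exon reads was not tested, nor was whether the windows in coding exons are bound by C/EBPα. They are given beside the binding data because they supply 13 of the 44 C/EBPα sites.

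**Figure D5:**
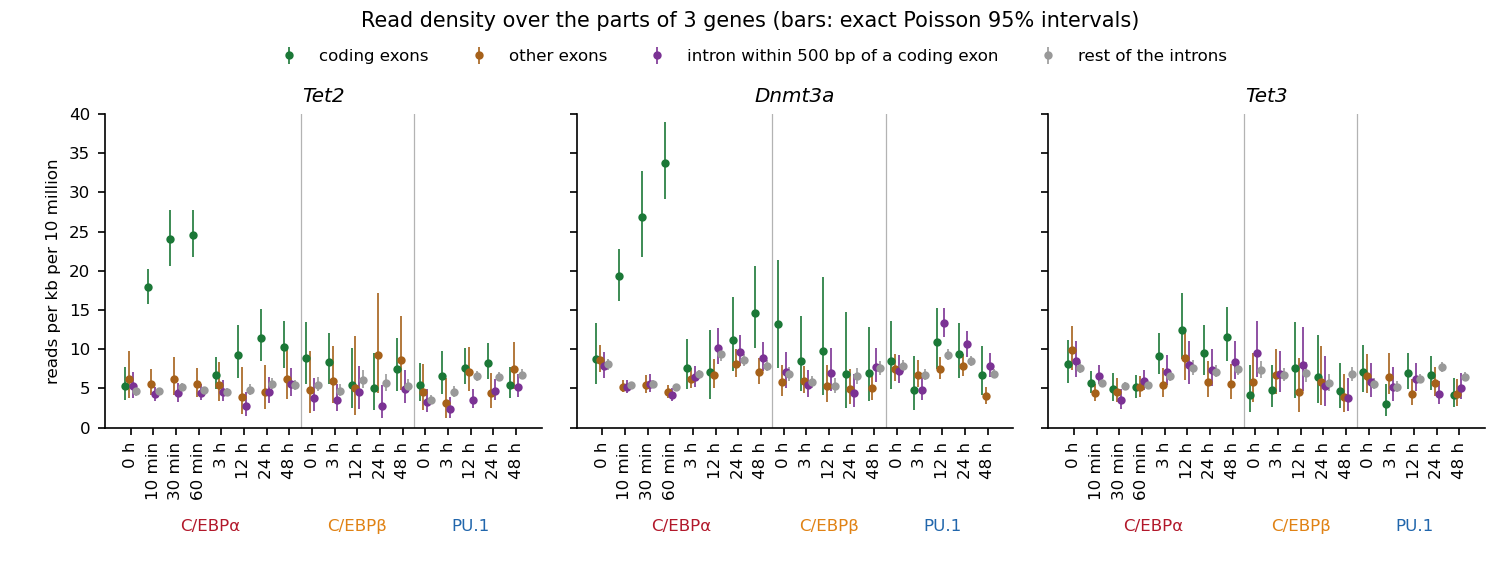
Normalised reads per kb (y axis) in 4 parts of Tet2, Dnmt3a and Tet3 in each of the 18 libraries (x axis, by factor and time), with exact Poisson 95% intervals as bars. In Tet2 and Dnmt3a the coding exons at 10, 30 and 60 min lie between 17.9 and 33.8, above the other 3 parts of the gene, whereas in Tet3 the 4 parts overlap.

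Motifs were counted in the same windows. TTGCNNAA was found in 9 of the 44 C/EBPα windows (20.5%, against 29.9% of C/EBPα windows of the genome), in 1 of the 13 in coding exons (7.69%) and in 8 of the 31 elsewhere (25.8%). Split by time, it was in 5 of the 22 sites called between 10 and 60 min alone (22.7%, against 24.9% in the genome) and in 4 of the 22 others (18.2%, against 31.6%). The same motif was in 3 of the 8 C/EBPβ windows (37.5%, against 39.4%). The shorter C/EBP form TTNCNNAA was in 22 of the 44 C/EBPα windows (50.0%, against 59.7%). It was in 4 of the 13 in coding exons (30.8%) and in 18 of the 31 elsewhere (58.1%). GAGGAAGT was found in 21 of the 71 PU.1 windows (29.6%, against 22.9%), and the shorter GAGGAA, which every GAGGAAGT contains, in 35 (49.3%, against 53.3%). A match describes letters in the window and not a bound position.

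Related genes were counted in the same way, from lists that are not independent of earlier results. Of 25 other genes of DNA methylation, demethylation and methyl-CpG reading, 22 had a C/EBPα site, 18 a C/EBPβ site and 24 a PU.1 site in their loci, against 62.8%, 45.3% and 78.3% of all protein-coding loci, with medians of 4.42, 1.39 and 10.6 sites per 100 kb. Of the 15 other histone deacetylase genes the counts were 13, 11 and 15 (3.52, 1.72 and 8.81 per 100 kb), and of 13 genes whose products work with class IIa deacetylases 12, 11 and 13 (5.74, 1.65 and 11). For the 7 members the medians were 3.5, 0 and 7.54, and over all loci 1.91, 0 and 4.78.

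Over the 18 libraries, the log2 summed site reads of each member, centred within each factor, were compared with those of 14292 loci that had at least 3 sites. This is a description, since all points share the same libraries. For Tet1, which had no C/EBPα or C/EBPβ call, the values of these factors are uncalled reads at PU.1 windows. Tet2, Tet3, Dnmt3a and Dnmt3b had no C/EBPβ call, so their C/EBPβ values are uncalled reads too. The sums of Tet1 and Dnmt3b were low, such as 0 and 2.33 normalised C/EBPβ reads at 0 h. For C/EBPα at 60 min they were 6.14 and 2.05. The loci most like the TET genes were Ppcs and Pak1ip1 for Tet1 (r = 0.89 and 0.86), 2310035C23Rik and Orc1 for Tet2 (0.90 each), and Tra2b and AA960436 for Tet3 (0.90 and 0.85). Tor1aip2 and Tatdn3 were most like Dnmt1 (0.95 each), Bag2 and Nt5dc1 like Dnmt3a (0.82 and 0.81), 0610007P14Rik and Baat like Dnmt3b (0.91 and 0.86), and Znfx1 and 1500012F01Rik like Hdac7 (0.91 each). Among the members themselves Tet1 and Dnmt3b were most alike (0.67), then Tet2 and Hdac7 (0.56), and Tet1 and Tet2 least (-0.49). The sums of Tet2 and Dnmt3a include their windows in coding exons. Without these, chosen after the values were seen, Rrp12 (0.91) and 2310035C23Rik (0.88) were most like Tet2, and 2410002I01Rik (0.91) and Dnajc8 (0.90) like Dnmt3a, where Bag2 fell to 0.62. The value of Dnmt3a and Dnmt1 was then 0.68 in place of 0.41, and that of Tet1 and Tet2 -0.28. Both ends of the order among the members thus changed. Dnmt3a and Dnmt1 were then most alike, just above Tet1 and Dnmt3b (0.67). Hdac7 with Tet1 and with Dnmt3b (-0.37 each) were least alike.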

How the data were processed

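ChIP-seq was performed by the authors with antibodies to C/EBPα (sc-61), C/EBPβ (sc-150) and PU.1 (sc-352) in C10 cells, 1 library per factor and time, and no input library was used here. The deposited files hold mapped reads, not counts per gene: per the labels and the study's methods, the aligners were ELAND and Bowtie, no mismatch was allowed in mm9, and multiply placed or identical tags were dropped. Bowtie and HOMER are named without versions in the submitters' processing notes. Libraries were grouped by the antibody and time in the labels.

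Reads sharing position and strand were counted once (at most 2.51% of a library), 5′ ends were moved 75 bp inward, and reads were counted in 200-bp windows every 10 bp and scaled to 10000000 reads (normalised reads). A site needed a Poisson p of at most 1e-07 against the genome average (2000000000 bp), 4 times the density of the surrounding 10 kb with p of at most 1e-04, and 400 bp to the next maximum. Overlapping windows of any library were merged. Ratios have exact conditional binomial 95% intervals, and a site was called higher or lower at 2-fold or more with an interval excluding 1. The site caller was tested on simulated data. The gene annotation was GENCODE vM1 on NCBIM37, the assembly of mm9. The sites given in full were, per locus, those with the most reads of each factor and those within 1000 bp of a start, to which others were added after their values were seen. The members and gene lists were chosen with earlier results of these data known. Alternatives were a higher read minimum, thinned libraries, all reads as deposited, another shift, another local fold, another window, no flank and scaling to reads away from sites. Python 3.11.15, NumPy 2.4.6 and SciPy 1.17.1 were used.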

Additional observations from a re-analysis of the deposited data

How the results depend on the processing

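The number of sites depended on the read minimum. With a minimum 1.5 times higher, the 44 C/EBPα, 8 C/EBPβ and 71 PU.1 sites became 14, 2 and 45. With each factor's libraries thinned to its smallest, C/EBPα had 21 and C/EBPβ 2, and with the gene spans alone C/EBPα had 28 and PU.1 36. Without the C/EBPα libraries of 10, 30 and 60 min, an alternative chosen after seeing the data, C/EBPα had 22. Between 0 and 48 hpi the higher minimum left 1 higher C/EBPα site of 5, 0 of 1 higher and 0 of 1 lower C/EBPβ site; a shift of each library's fragment length divided by 2 also left 0 and 0 for C/EBPβ. A 400-bp window gave 2 higher C/EBPβ sites and 14 higher PU.1 sites, against 9. The other 43 of 58 recounts stayed within 1.5 times the count given, while 8 of the 131 recomputed log2 ratios of 48 to 0 hpi at the sites given by the naming rule changed sign, all with a ratio that was not called, such as PU.1 at Dnmt1 site 4 (-0.98, and 1.43 with the fragment-length shift). No paired analysis was possible because each factor and time is 1 library, and for the same reason no replicate could be left out. Read counts are low: many ratios rest on 1 to 3 reads at 0 h, C/EBPβ libraries are the shallowest, and windows chosen at their maximum read high.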

Other observations

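The 2 genes besides Tet2 and Dnmt3a whose coding exons stood above the rest of the gene in the C/EBPα libraries of 10, 30 and 60 min, named after their values were seen, were Myc and Foxo1. The ratio of coding exons to the rest of the gene was 3.96 to 109 for Myc, against 0.836 to 2.79 in the 15 other libraries, and 2.07 to 2.48 for Foxo1, against 0.131 to 1.73. The origin of the reads in these 4 genes was not tested.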
